A study of Mus musculus with 32 samples.

Results

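The 10 genes described here are the inhibitor of DNA binding genes Id1, Id2, Id3 and Id4, the signal transducers Smad1 and Smad5, the inhibitory Smad6 and Smad7, and the homeobox genes Msx1 and Msx2. They are 10 of 19938 genes with a probe of their own. They were chosen by name, with their sex differences in these arrays already known, and each was read by the 1 probe of the array annotation that named that gene alone, out of 35556 probes. RNA came from 32 pools of germ cells sorted for EGFP from fetal mouse gonads at 17.5 dpc, where EGFP marked germ cells because the OG2 transgene puts it under the Oct4 promoter. In the G1R groups, pregnant dams had received corn oil (Oil) or an endocrine disruptor (ED) in corn oil from 12.5 dpc. The ED was the plastic monomer bisphenol A (BPA) at 0.2, the phthalate plasticizer DEHP at 750 or the antiandrogenic fungicide vinclozolin (VZ) at 100 mg per kg body weight and day. Female (F) and male (M) germ cells of their FVBxOG2 fetuses gave 3 arrays for each sex and treatment, except 2 for G1R DEHP F. In the G2R groups (Oil, DEHP and VZ, 3 arrays each), male germ cells came from OG2xFVB fetuses of the following generation, which were not dosed themselves. Per the study, their fathers were FVB males exposed in utero, through dams given oil or the ED, and mated to OG2 females. All fetuses carried the OG2 transgene, and the labels did not say whether arrays of a group came from separate litters, so that every p-value measured only the spread between these arrays. Generation and direction of the cross differed together, and per the study the G1R and G2R samples may have been run at different times, so that these factors cannot be told apart in any comparison of generations.

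Bone morphogenetic proteins (BMPs) are secreted dimers that assemble type I and type II serine/threonine kinase receptors. The type I receptor phosphorylates SMAD1, SMAD5 and SMAD9, which join SMAD4 and enter the nucleus, where the Id genes, the Msx genes and the genes of the inhibitory SMAD6 and SMAD7 are among their best known targets. ID proteins have a helix-loop-helix but no DNA-binding region, so they bind E proteins and keep them from pairing with tissue-specific basic helix-loop-helix (bHLH) factors. BMP signals from neighbouring tissue are needed to form mouse primordial germ cells, and BMP signalling has also been linked to entry into the female germ cell fate. At the stage sampled, female germ cells are oocytes in meiotic prophase and male germ cells are prospermatogonia resting before birth.

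The RefSeq promoter table (GRCm38.p6) held 8 of the 10 genes, and the 250 bases before the start site are shown for Id2, Id3 and Id4, which were higher in oocytes, and for Msx2, which was lower, because these are the genes with the widest differences between the sexes among those in the table. Capitals mark GGCGCC, a GC-rich motif linked to SMAD1 and SMAD5, and CAGAC or its reverse complement GTCTG, a motif linked to SMAD3 and SMAD4. The windows are Id2 chr12:25096093-25096342 (minus strand), Id3 chr4:136143572-136143821 (plus strand), Id4 chr13:48260866-48261115 (plus strand) and Msx2 chr13:53472781-53473030 (minus strand).
Id2: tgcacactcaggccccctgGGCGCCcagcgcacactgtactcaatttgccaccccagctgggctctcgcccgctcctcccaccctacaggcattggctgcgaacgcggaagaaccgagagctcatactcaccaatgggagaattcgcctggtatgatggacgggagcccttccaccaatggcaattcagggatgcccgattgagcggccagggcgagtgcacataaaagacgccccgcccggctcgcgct
Id3: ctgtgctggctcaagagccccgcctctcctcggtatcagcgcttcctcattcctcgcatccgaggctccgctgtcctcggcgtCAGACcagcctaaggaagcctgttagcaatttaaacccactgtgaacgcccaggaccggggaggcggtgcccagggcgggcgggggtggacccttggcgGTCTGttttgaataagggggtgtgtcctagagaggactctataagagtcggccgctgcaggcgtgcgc
Id4: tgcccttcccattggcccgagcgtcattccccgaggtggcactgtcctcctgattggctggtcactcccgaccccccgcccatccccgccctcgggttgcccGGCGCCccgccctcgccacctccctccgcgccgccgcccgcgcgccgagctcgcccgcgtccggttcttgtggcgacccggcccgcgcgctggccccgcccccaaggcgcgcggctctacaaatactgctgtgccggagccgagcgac
Msx2: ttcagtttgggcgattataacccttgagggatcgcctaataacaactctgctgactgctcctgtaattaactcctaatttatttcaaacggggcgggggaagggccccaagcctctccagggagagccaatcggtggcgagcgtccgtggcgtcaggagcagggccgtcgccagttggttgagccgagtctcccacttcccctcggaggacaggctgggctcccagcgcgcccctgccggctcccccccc
GGCGCC stood once in the Id2 window, beginning 231 bases before the start site, and once in the Id4 window, beginning 148 bases before it. Of 32851 promoter windows of the same length, 9.59% held GGCGCC on either strand. The Id2 and Id4 windows are 62.8% and 75.6% G and C, against a median of 52.4% over all windows, and no share among windows of like base composition was computed. The Id3 window had CAGAC on both strands, 2 matches in all, against 42.2% of all windows with at least 1. Neither motif stood in the Msx2 window. The E-box CANNTG, the kind of site that E proteins bind, stood once in each of the Id2 and Msx2 windows and in neither the Id3 nor the Id4 window, and 66.2% of all windows held it. These are matches of letters, and no binding was measured.

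The mean log2 signal over 7 germ cell markers was between 10.48 and 11.41 on every array. Of these markers, Pou5f1 (Oct4) and Dppa4 were dim in G1R Oil F, at 7.65 and 7.96, against 10.83 and 10.43 in G1R Oil M. The 6 oocyte markers averaged 9.43 in G1R Oil F and 7.81 in G1R Oil M, and the 6 prospermatogonia markers averaged 7.41 and 10.06. The oocyte markers Stra8 and Zp3 and the prospermatogonia markers Nanos2 and Tdrd9 did not follow their labels. Zp3 was at 6.65 in G1R Oil F and 8.73 in G1R Oil M, and Tdrd9 at 11.03 and 10.75. Of the 6 prospermatogonia markers, 4 passed as lower and 1 as higher in females. Means of somatic cell marker lists were lower in the female arrays. Stromal markers averaged 7 in G1R Oil F and 7.85 in G1R Oil M (7 of 8 passed the test). Endothelial markers averaged 6.76 and 7.77 (8 of 10), Leydig cell markers 6.15 and 7.10 (2 of 4) and Sertoli cell markers 6.90 and 7.53 (3 of 8). Pregranulosa cell markers, listed for somatic cells of the ovary, averaged 7.43 and 7.79 (3 of 8), with Foxl2 at 6.96 and 6.91. Fst was at 7.42 and 8.72, Wt1 at 7.82 and 8.36 and Gata4 at 7.91 and 8.35. Since this list was brighter in males, its mean does not show how much pregranulosa cell RNA the female pools held. Over all probes 54.3% passed between G1R Oil F and G1R Oil M, 28.7% as higher and 25.6% as lower in females. The part of somatic cells in the sex differences below was not tested. On 3 male arrays the Leydig cell markers stood above their level on every oil male array (at most 8.02): G1R BPA M replicates 1 and 2 at 8.28 and 8.9, and G2R DEHP M replicate 2 at 9.16. Where leaving them out moved a difference named below, that value is given too.

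Id1, Id2 and Id3 were bright in every oocyte sample and far lower in every prospermatogonia sample, where Id2 reached 8.43 at most. In G1R Oil F, Id2 gave log2 signals of 12.83, 12.68 and 12.74 on the 3 arrays, and in G1R Oil M 6.71, 7.06 and 7.18. Id1 gave 11.85, 12.12 and 12.12 in G1R Oil F and 7.24, 7.17 and 7.21 in G1R Oil M. Id3 gave 10.94, 10.71 and 10.80 in females and 6.47, 6.44 and 6.62 in males. For each of these 3 genes the lowest female array was above the highest male array by a wide margin, and the spread within a group was small beside it. Over all treatments, Id1 ranged from 11.63 to 12.12 (median 11.85) on the 11 female arrays and from 6.78 to 7.42 (median 7.12) on the 21 male arrays. Id3 ranged from 10.55 to 10.94 (median 10.70) on female and from 6.11 to 6.82 (median 6.41) on male arrays. Id2 ranged from 12.54 to 12.83 (median 12.68) on female arrays, while its male values were the widest of the 4 Id genes, from 6.42 to 8.43 (median 7.12). Because pools of cells were measured, a difference in RNA per germ cell and a difference in the share of cells that hold the RNA cannot be told apart. The sex comparison was what picked these genes, so these values are a description without a test.

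Id4 differed less. Its signals were 8.61, 8.91 and 8.70 in G1R Oil F and 7.40, 7.38 and 7.41 in G1R Oil M, and the groups did not overlap. The difference between the sexes was 1.29 to 1.34 on the log2 scale over the 4 treatments, or 2.45- to 2.54-fold, whereas that of Id3 was 4.12 to 4.49 (17.4- to 22.5-fold) and that of Id1 was 4.54 to 4.82 (23.2- to 28.3-fold). The difference of Id2 varied the most with treatment, from 4.89 after BPA (29.7-fold) to 5.77 after oil (54.4-fold). The low ends of Id1, Id2 and Id3 were the BPA values. Without the 2 BPA male arrays with bright Leydig cell markers, the differences after BPA were 4.81 for Id1, 5.76 for Id2, 4.44 for Id3 and 1.16 for Id4. Ordered by level, the 4 female groups came first for all 4 Id genes, and neighbouring groups overlapped in their arrays except at the step from females to males and, for Id3, at the step from G2R VZ M (6.40) to G1R VZ M (6.19).

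**Figure D1:**
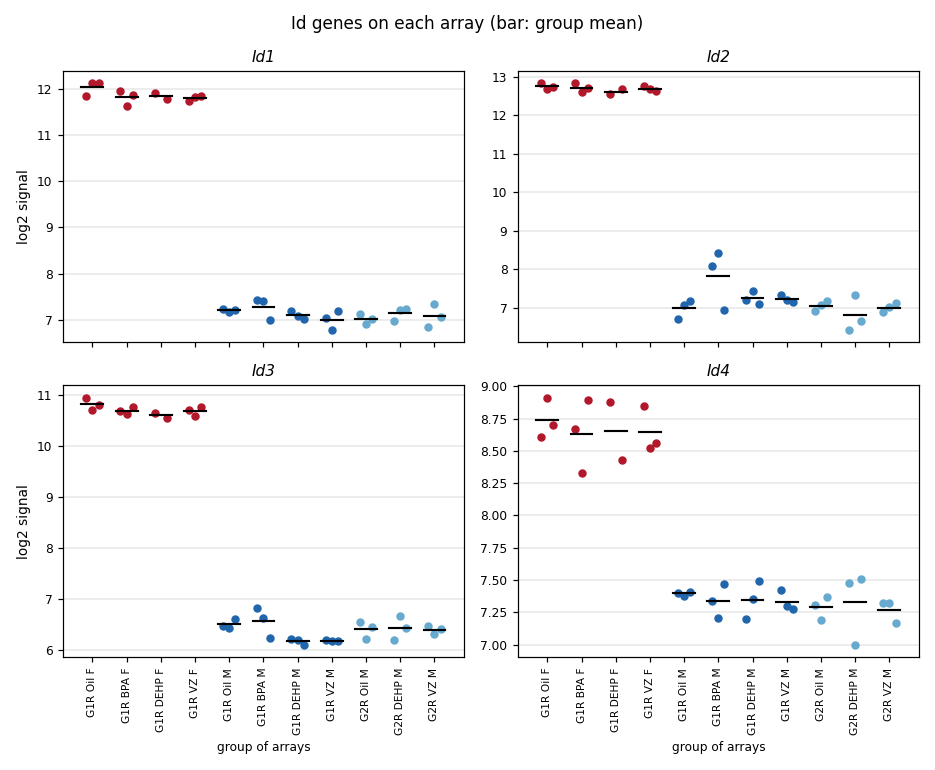
Log2 signal of Id1, Id2, Id3 and Id4 (vertical axes, each with its own range) on each array of the 11 groups (horizontal axis), with points for arrays and bars for group means. Red points are female, dark blue points G1R male and light blue points G2R male arrays. The female arrays of Id2 lie between 12.54 and 12.83 and its male arrays between 6.42 and 8.43, with 2 of the 3 G1R BPA M arrays at the top of the male range.

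The signal transducers differed little between the sexes. Smad5 gave 8.90, 9.12 and 9.08 in G1R Oil F and 8.26, 8.49 and 8.39 in G1R Oil M. Its female arrays lay above its male arrays in every treatment, by 0.56 to 0.65 on the log2 scale. Smad1 went the other way by a smaller step, with 7.29, 7.32 and 7.39 in G1R Oil F and 7.69, 7.47 and 7.47 in G1R Oil M. After BPA the Smad1 arrays of both sexes overlapped and the difference was -0.05, with no settled sign: it was 0.03 with cyclic loess normalization and 0.02 without the arrays with bright Leydig cell markers. The mean of Smad1 over all arrays (7.42) was just under the median of all probes (7.44), as were those of Smad6 (7) and Msx1 (7.35).

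The inhibitory Smad7, a negative regulator of both BMP and TGF-beta signals, was lower in oocytes. It gave 6.95, 7.07 and 7.01 in G1R Oil F and 7.88, 7.61 and 8.02 in G1R Oil M, and the difference was -0.83 after oil, -1.25 after DEHP and -1.16 after BPA, the last of which was -0.82 without the 2 BPA male arrays with bright Leydig cell markers. Over all arrays its females ranged from 6.57 to 7.40 and its males from 7.61 to 8.52, with no overlap. Msx2 followed the same order, with 6.93, 6.84 and 7.19 in G1R Oil F and 8.06, 8.21 and 7.96 in G1R Oil M, and its difference ran from -1.09 to -0.82 (after BPA -0.83, and -0.71 without those arrays). Smad6, which acts mainly on BMP receptors, overlapped between the sexes after oil (7.03, 7.34 and 7.34 in females, 6.92, 7.04 and 6.92 in males). Msx1 overlapped too, at 7.51, 7.56 and 7.69 in females and 7.54, 7.45 and 7.52 in males. In G1R oil samples 8 of the 10 genes did not overlap between the sexes, 5 of them higher in females and 3 in males, and 59.8% of all probes did not overlap in the same comparison. The count was 8 after BPA, 9 after DEHP and 9 after VZ, against 61%, 68.2% and 64.1% of all probes. Nothing is read from these counts, since the sex comparison chose the genes.

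**Figure D2:**
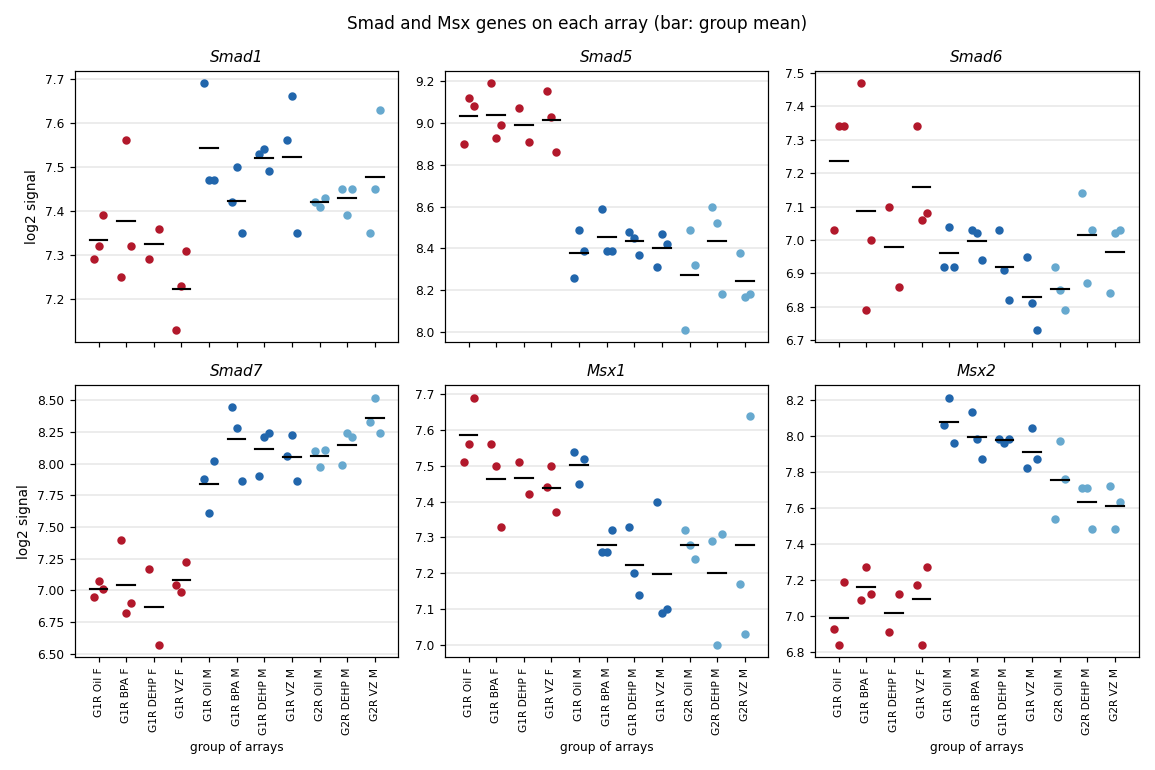
Log2 signal of Smad1, Smad5, Smad6, Smad7, Msx1 and Msx2 (vertical axes, each with its own range) on each array of the 11 groups (horizontal axis), with points for arrays and bars for group means, in red for female, dark blue for G1R male and light blue for G2R male arrays. Smad7 and Msx2 lie higher on every male than on every female array, Smad5 lies lower, and the other panels overlap.

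The genes whose pattern over the 32 arrays was most like that of Id1 were Id3, Zfp512b and Terb1, with Pearson r of 0.997, 0.997 and 0.996 among 19937 genes compared. Terb1 encodes a protein that tethers telomeres in meiosis. For Id3 they were Id1, Lhx8 and Terb1, with r of 0.997, 0.996 and 0.995, and Lhx8 encodes a LIM homeobox factor of oocytes. For Id2 they were Vkorc1, Ssr2 and Ndufa1, with r of 0.996, 0.995 and 0.995, which act in the vitamin K cycle, in protein translocation into the endoplasmic reticulum and in the respiratory chain. The points share the step between the sexes, and 62 to 112 genes passed 0.99 for each Id gene. Within the 21 male arrays the correlation with Terb1 was -0.07 for Id1 and -0.02 for Id3, that of Id1 with Id3 was 0.585, and those of Id2 with Vkorc1, Ssr2 and Ndufa1 were 0.826, 0.799 and 0.678. Over the 18 male arrays without the 3 with bright Leydig cell markers, the correlation of Id1 with Id3 was 0.328 and those of Id2 with the same genes were 0.642, 0.503 and 0.582.

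The other genes of the pathway were tested between G1R Oil F and G1R Oil M with limma over all probes and Benjamini-Hochberg adjustment. Of 112 measured pathway genes, 27 were higher and 47 lower in oocytes, and 38 did not pass. Over all probes 54.3% passed, 28.7% higher and 25.6% lower. The median difference was -0.19 on the log2 scale over the pathway genes and 0.05 over all probes. Median differences of the lists below are set against that 0.05, and values in brackets are differences of female minus male log2 signal with their standard error (SE).

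BMP ligands that passed were lower in oocytes, with 1 exception. Of 14 ligands, 7 were lower, 1 was higher and 6 did not pass, and the list median was -0.26. Bmp4, needed to form primordial germ cells, averaged 6.61 ± 0.119 in females and 8.86 ± 0.231 in males (SD, n = 3 each; -2.25, SE 0.141, adjusted p from limma 4.61e-13). Bmp2 stood at 6.26 and 7.78 (-1.52, SE 0.140), and Bmp8b at 7.31 and 8.32 (-1.01, SE 0.109). The ligand that was higher was Bmp15, a growth factor of oocytes, at 6.87 and 6.41 (0.46, SE 0.129). Both means lay under the median of all probes (7.44). Among the 12 other ligands of the family, 4 were lower and 1 higher, with Tgfb1 showing the widest difference, at 7.36 in females and 10.09 in males (-2.72, SE 0.117).

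Receptors split by gene. Of 12 BMP receptors and co-receptors, 5 were higher and 5 lower in oocytes. The type I receptor Bmpr1a averaged 10.96 ± 0.0448 in females and 9.66 ± 0.106 in males (1.30, SE 0.0894, adjusted p from limma 2.55e-12), and the type II receptor Bmpr2 11 and 9.81 (1.19, SE 0.112). Acvr2a and Acvr2b, type II receptors shared with activins, were higher by 0.69 and 0.36, and the co-receptor Rgmb by 0.36. The type I receptor Bmpr1b was lower (-0.71), as were Acvr1 (-0.52), Acvrl1 (-0.33), the co-receptor Eng (-0.92) and Rgma, a co-receptor anchored in the membrane (-1.69). Of 5 TGF-beta and activin receptors, Tgfbr1 (1.70) and Acvr1b (0.71) were higher and Tgfbr3 (-0.64) and Tgfbr2 (-0.26) lower. Tgfbr2 did not pass with cyclic loess (adjusted p = 0.211).

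All 4 remaining SMAD genes passed. The shared partner Smad4 was higher in oocytes (11.27 against 10.79, difference 0.48, SE 0.0681), as were Smad2 (0.81) and Smad3 (0.50), which carry TGF-beta and activin signals. Smad9, the third SMAD of the BMP branch, was lower (-0.65, SE 0.099).

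Among the secreted and membrane antagonists, those that passed after oil were lower in oocytes. Of 16 measured, 8 were lower in oocytes, 0 were higher and 8 did not pass, and the list median was -0.35. In the other treatments 9 to 10 were lower and 1 to 2 higher. Of all 35556 probes, 8937 were lower and 10894 higher after BPA, 8393 and 10125 after DEHP, and 8699 and 11011 after VZ. Fstl1, a secreted follistatin-like protein, averaged 6.88 ± 0.0765 in females and 9.91 ± 0.0244 in males (-3.03, SE 0.114, adjusted p from limma 3.2e-17). Fst, which binds activins and BMPs, was lower by -1.30, Cer1 by -1.29, Chrdl2 by -1, Chrdl1 by -0.94 and the decoy receptor gene Bambi by -0.92. The classic BMP antagonists Nog and Chrd did not pass (-0.05 and -0.16), nor did Dand5 and Bmper (0.20 each). Fst also stands on the pregranulosa cell list, and stromal and endothelial marker means were lower in the same arrays, as given above.

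Intracellular regulators of SMADs moved in both directions, with 9 of 18 higher, 6 lower and 3 not passing. Tob1, which dampens BMP-induced transcription, was higher (11.09 against 8.93, 2.17, SE 0.113), as were the ubiquitin ligase genes Stub1 (1.38), Smurf1 (1.20) and Smurf2 (0.57), the phosphatase gene Ppm1a (1.11) and the repressor gene Zeb1 (1.42). The ubiquitin ligase gene Nedd4l was lower (8.32 against 10.29, -1.97, SE 0.0905), with Zeb2 (-1.19) and Skil (-0.92). The second probe of Smurf2 gave 1.11 and that of Ctdsp2 -0.32 where the main probe gave -0.76, so the probes differed in size but not in sign.

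Other reported BMP targets did not follow Id1, Id2 and Id3. Of 16 measured, 9 were lower in oocytes, 2 were higher and 5 did not pass, with a list median of -0.52. Prdm1, a repressor that sets up the primordial germ cell fate, averaged 6.41 ± 0.361 in females and 8.90 ± 0.104 in males (-2.49, SE 0.134, adjusted p from limma 2.46e-14). Hey1 (-0.87), Atoh8 (-0.81), Hey2 (-0.78), Tbx2 (-0.62), Gata3 (-0.59), Dlx3 (-0.56), Tfap2c (-0.55) and Tbx3 (-0.50) were lower too. The 2 that were higher were Stat3 (0.90), the gene of a cytokine-activated transcription factor, and Hes1 (0.65), a target of Notch signals.

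Of the E proteins that ID proteins bind, Tcf12 was higher in oocytes (11.50 against 10.57, 0.93, SE 0.0723), while Tcf3 (0.05) and Tcf4 (0.08) did not pass. With cyclic loess both turned, Tcf3 to -0.20 (adjusted p from limma 0.047) and Tcf4 to -0.18 (adjusted p from limma 0.249). Among 12 tissue-specific bHLH genes, 3 were higher and 5 lower. The 3 were the germline factors Figla (11 against 7.54, 3.47, SE 0.112), Sohlh2 (10.04 against 7.52, 2.52, SE 0.116) and Sohlh1 (10.55 against 9.47, 1.07, SE 0.097), of which Figla and Sohlh1 also served as oocyte markers above. Tcfl5, a bHLH gene of spermatogenesis, was lower (-0.74).

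**Figure D3:**
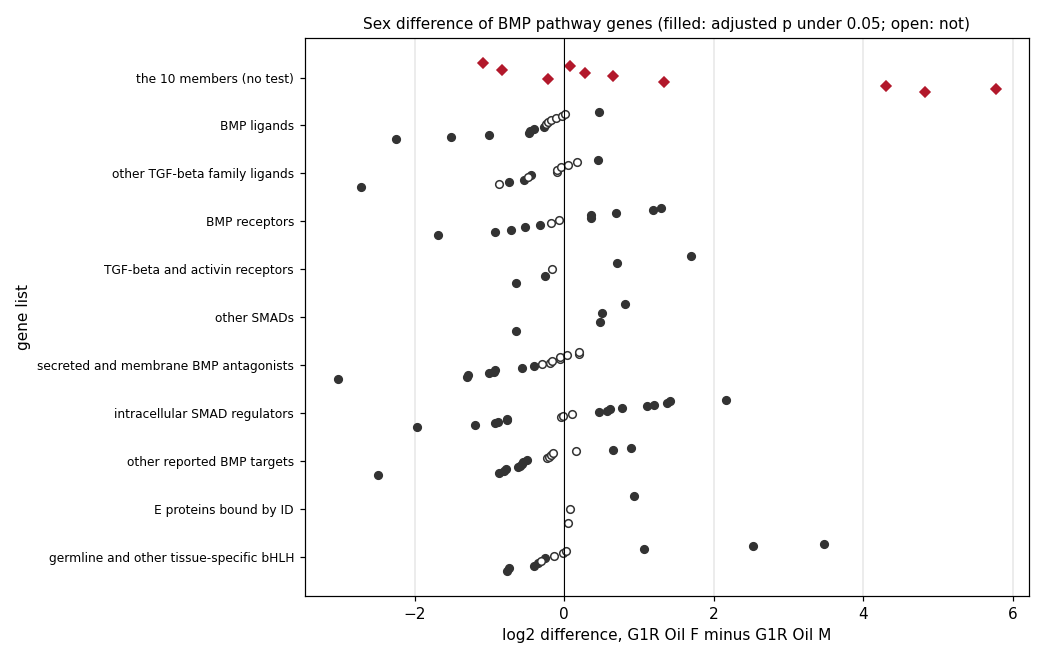
Difference of log2 signal between G1R Oil F and G1R Oil M (horizontal axis, positive where females were higher) for each gene of the pathway lists (rows), with filled circles for genes that passed the test and open circles for those that did not. Red diamonds give the 10 members without a test: Id1, Id2 and Id3 stand at 4.82, 5.77 and 4.30, while the antagonists and reported targets lie mostly below 0.

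ED and oil were compared in 8 contrasts of RNA levels, in exposed germ cells (G1R) and in those of the following generation (G2R). Signalling itself was not measured, and a gene that did not pass is not shown to be unchanged. Comparisons within a sex and generation shared their oil arrays. None of the 10 genes passed in any contrast by limma, and none did by the unmoderated least squares contrasts. Over all probes, 0% passed in 6 contrasts and 0.00562% in G1R DEHP M and in G1R VZ M. At an unadjusted p under 0.05 there were 0 of 10 genes in each of the 3 female contrasts, where 4.56% (BPA), 6.28% (DEHP) and 5.96% (VZ) of all probes were below it. In the G1R male contrasts there were 2 of 10 each, against 6.96% (BPA), 14.4% (DEHP) and 18.3% (VZ), and in the G2R contrasts 0 of 10, against 6.91% (DEHP) and 5.41% (VZ).

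Groups without overlap with oil were counted too. In females there were 0 of 10 genes after BPA, 2 after DEHP and 2 after VZ, against 8.17%, 22.3% and 11.8% of all probes. In G1R males there were 1, 2 and 2, against 13.3%, 20.7% and 27.5%, and in G2R males 0 after DEHP and 1 after VZ, against 9.69% and 10%.

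In oocytes the differences of all 10 genes lay between -0.26 and 0.17. Id1 was at 11.94, 11.63 and 11.87 after BPA, 11.90 and 11.78 after DEHP and 11.74, 11.82 and 11.85 after VZ, against 11.85, 12.12 and 12.12 after oil. After VZ the highest array lay just under the lowest oil array, both 11.85 when rounded, and the difference was -0.23 (95% interval -0.49 to 0.04, adjusted p from limma 0.871). For Id2 the intervals were -0.52 to 0.45 after BPA, -0.68 to 0.40 after DEHP and -0.55 to 0.42 after VZ. The smallest p-value after DEHP was that of Smad6, at 7.10 and 6.86 against 7.03, 7.34 and 7.34 (difference -0.26, interval -0.55 to 0.04, adjusted p from limma 0.839).

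In G1R prospermatogonia Id3 had the smallest p-value after DEHP and after VZ. It gave 6.23, 6.20 and 6.11 after DEHP and 6.20, 6.18 and 6.19 after VZ, against 6.47, 6.44 and 6.62 after oil. Neither treated group overlapped with oil. The differences were -0.33 (SE 0.117, adjusted p from limma 0.196) and -0.32 (SE 0.117, adjusted p from limma 0.156). Msx1 was next, at 7.33, 7.20 and 7.14 after DEHP and 7.40, 7.09 and 7.10 after VZ, against 7.54, 7.45 and 7.52 after oil, with differences of -0.28 and -0.30 (adjusted p from limma 0.274 and 0.169). The G1R oil males stood above every other male group in Msx1, the G2R oil males at 7.28 included. Smad7 was at 8.45, 8.28 and 7.86 after BPA, against 7.88, 7.61 and 8.02 after oil (0.36, interval 0.02 to 0.69, adjusted p from limma 0.684). The 2 high Smad7 arrays were replicates 1 and 2, which also had bright Leydig, Sertoli and stromal markers, and without them the difference was 0.02. The part of these cells was not tested.

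In G2R prospermatogonia the differences lay between -0.24 and 0.16 after DEHP and between -0.15 and 0.30 after VZ. The highest was Smad7 after VZ, at 8.33, 8.52 and 8.24 against 8.10, 7.97 and 8.11 (0.30, SE 0.164, adjusted p from limma 0.935), where the groups did not overlap. Id3, at -0.33 and -0.32 after DEHP and VZ in G1R, was at 0.02 and -0.01 in G2R. Without G2R DEHP M replicate 2, the array with the brightest Leydig cell markers, Id3 after DEHP was at -0.09 and Id2 at -0.51 in place of -0.24 (adjusted p from limma 0.746 and 0.133).

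**Figure D4:**
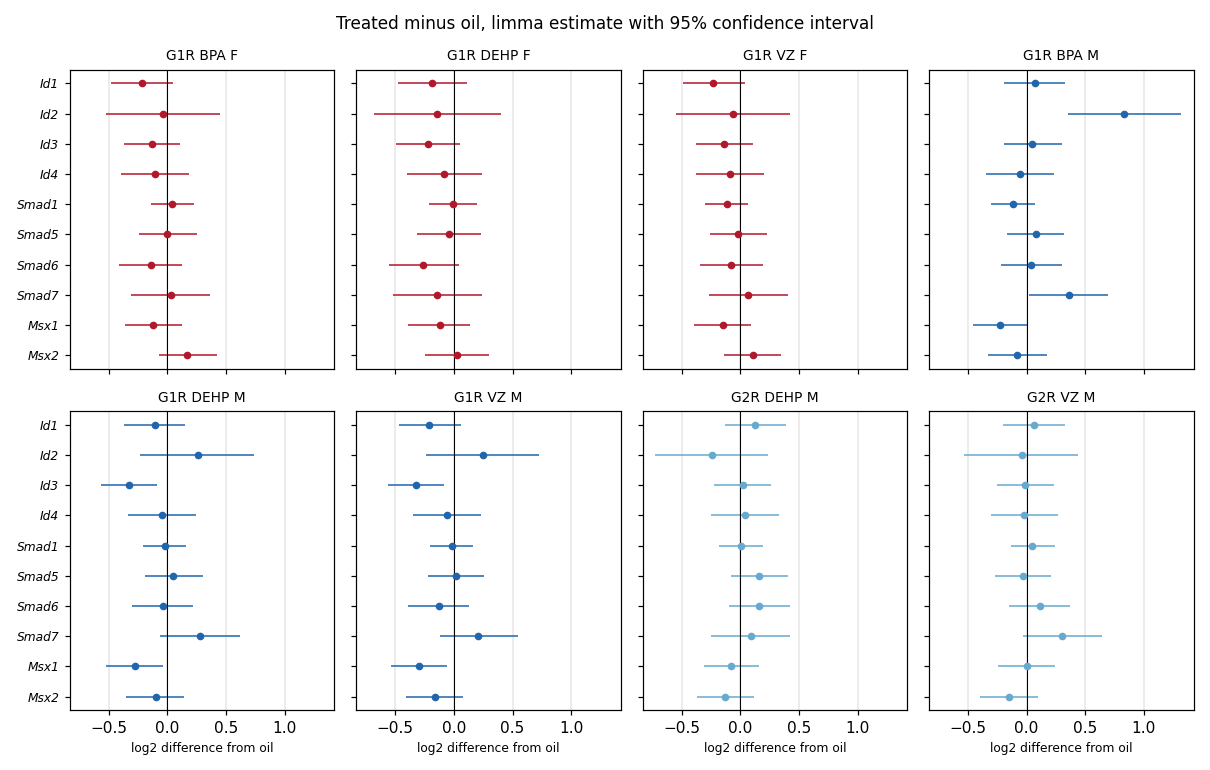
Difference of log2 signal between treated and oil arrays (horizontal axis) for the 10 genes (rows) in the 8 contrasts (panels), as the limma estimate with its 95% confidence interval, in red for female, dark blue for G1R male and light blue for G2R male contrasts. Of the intervals, 6 do not hold 0: Id2 (0.35 to 1.32) and Smad7 in G1R BPA M, and Id3 and Msx1 in G1R DEHP M and in G1R VZ M. No gene passed after adjustment over all probes.

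Id2 after BPA in males had the smallest unadjusted p-value of the 10 genes in that contrast. Its 3 arrays were at 8.08, 8.43 and 6.94, against 6.71, 7.06 and 7.18 after oil, so 2 arrays lay above all other male arrays and the third lay among the oil values. The difference was 0.83 (SE 0.235, unadjusted p from limma 0.00164, adjusted p 0.34). The 2 high arrays were replicates 1 and 2, whose Leydig cell markers averaged 8.28 and 8.9, Sertoli cell markers 8.99 and 8.35 and stromal markers 8.53 and 9.27. Replicate 3, with Id2 at 6.94, had 6.78, 7.43 and 7.76 for the same lists, within the range of the G1R oil males for the Leydig, Sertoli and stromal lists (6.71 to 7.34, 7.32 to 7.72 and 7.57 to 8.07). Without replicates 1 and 2 the difference was -0.04, and without replicate 3 it was 1.27 and passed (adjusted p from limma 0.000454). Id1 and Id3, at 0.07 and 0.05, were at -0.21 and -0.26 without replicates 1 and 2 (adjusted p from limma 1 for each), where the lone BPA array was assumed to vary like the other groups. In G2R DEHP M, replicate 2 had the brightest Leydig cell markers of all arrays (9.16) and the highest Id2 (7.33) and Id3 (6.67) of its group. The other arrays of that group gave 6.42 and 6.66 for Id2 and 6.21 and 6.44 for Id3. Sertoli and stromal markers of this replicate, at 7.5 and 8.05, lay within the range of the G2R oil males. Id2 was higher on G1R DEHP M replicate 2 (7.44) and G1R VZ M replicate 1 (7.34), where Leydig cell markers averaged 7.58 and 6.68. Id1 and Id3 also had their highest male values, 7.42 and 6.82, on replicate 1 of G1R BPA M. Whether somatic cells carried this Id RNA into the pools was not tested.

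**Figure D5:**
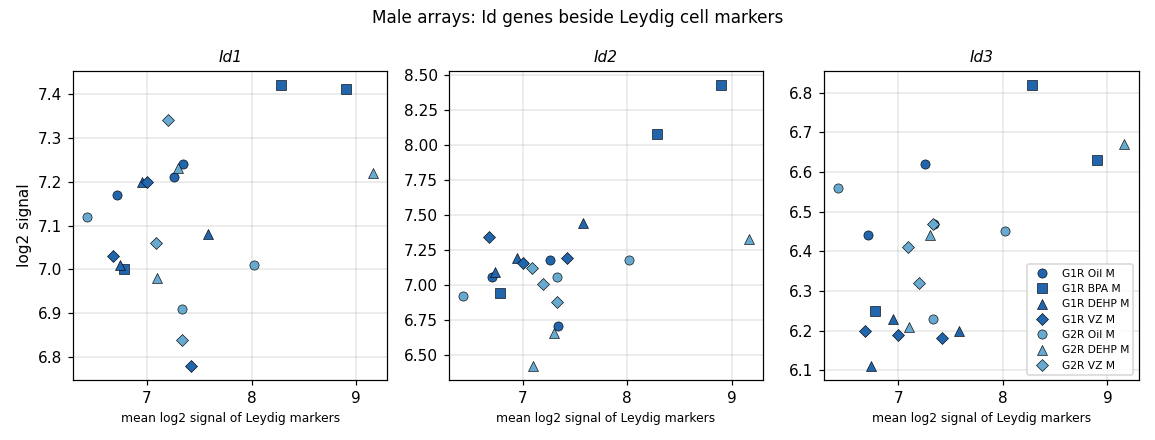
Log2 signal of Id1, Id2 and Id3 (vertical axes, each with its own range) against the mean log2 signal of 4 Leydig cell markers (horizontal axis) on each of the 21 male arrays, with marker shape for treatment and dark or light blue for G1R or G2R. The 2 arrays of G1R BPA M with Id2 at 8.08 and 8.43 have Leydig cell markers at 8.28 and 8.9, and the third has both low. The array with the brightest Leydig cell markers (9.16, G2R DEHP M replicate 2) has Id2 at 7.33.

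Of the 112 other pathway genes, 0 passed in any ED contrast by limma or by unmoderated least squares. At an unadjusted p under 0.05 there were 4, 10 and 7 after BPA, DEHP and VZ in females, 15, 19 and 19 in G1R males and 5 and 6 after DEHP and VZ in G2R males. Over all probes the shares were 4.56%, 6.28% and 5.96% in females, 6.96%, 14.4% and 18.3% in G1R males and 6.91% and 5.41% in G2R males. The closest were Zeb1 after DEHP in G1R males (8.78 against 8.32, 0.46, SE 0.0968, adjusted p from limma 0.0724) and Tgfbr1 after VZ in G1R males (8.96 against 8.66, 0.30, SE 0.0743, adjusted p from limma 0.0806). Without G1R BPA M replicate 3, Id2 and 9 pathway genes passed in the BPA contrast of males. Among them were Amh (2.25), a Sertoli cell hormone, and Inha (2.36). That fit kept the other BPA male arrays, which had bright Leydig, Sertoli and stromal markers. The share of all probes that passed in it was not computed, so nothing is read from this count.

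Between oil males of both generations, none of the 10 genes passed by limma, where 10.3% of all probes did, nor by unmoderated least squares. At an unadjusted p under 0.05 there was 1 of 10, against 26.9%. Groups did not overlap for 4 of 10 (Id1, Id4, Smad1 and Msx1), against 32.6%. The gene under 0.05 was Msx2, at 7.54, 7.97 and 7.76 in G2R Oil M and 8.06, 8.21 and 7.96 in G1R Oil M, with ranges that just overlapped (-0.32, SE 0.12, adjusted p from limma 0.0896). Msx1 was at 7.32, 7.28 and 7.24 in G2R and 7.54, 7.45 and 7.52 in G1R (-0.23, adjusted p from limma 0.211). Of the 112 pathway genes, 6 were higher and 6 lower in G2R, against 5% and 5.3% of all probes. The higher ones were Bmpr1a (0.30), Tgfbr1 (0.32), Smurf2 (0.29), Skil (0.33), Ppm1a (0.37) and Tcf12 (0.26), and the lower ones Bmp8b (-0.36), Gdf5 (-0.40), Gdf3 (-0.26), the co-receptor gene Hjv (-0.47), Fkbp1a (-0.30), whose protein binds type I receptors, and Myod1 (-0.42). None of the 12 passed when the 6 arrays of these groups were fitted alone.

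No difference of effects passed either. For the effect of an ED in females minus that in males, 0 of 10 genes passed by limma for BPA, DEHP or VZ, as did 0% of all probes. At an unadjusted p under 0.05 there was 1 of 10 for BPA (4.84% of all probes), 0 for DEHP (7.47%) and 0 for VZ (6.21%). The 1 was Id2 for BPA (-0.87, interval -1.56 to -0.19, adjusted p from limma 0.996), which rests on the 2 male arrays named above. Without them it was 0. Without G1R BPA M replicate 3 it was -1.31 and passed (adjusted p from limma 0.0248), and no share of all probes was computed for that fit. For the effect in G2R minus that in G1R, 0 of 10 passed for DEHP and for VZ, as did 0% of all probes. At an unadjusted p under 0.05 there was 1 of 10 for DEHP (13.3% of all probes) and 0 for VZ (16.2%). Unmoderated least squares gave 0 in all 5 comparisons of effects. Id3 had the smallest p-value in both (0.35, SE 0.165, adjusted p from limma 0.36 for DEHP; 0.31, SE 0.165, adjusted p from limma 0.358 for VZ). Without the 3 arrays with bright Leydig cell markers, Id2 passed for DEHP (-0.77 in place of -0.50, adjusted p from limma 0.0364) and Id3 was at 0.24 (adjusted p from limma 0.359).

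Whether Id1, Id2 and Id3 varied together within groups was asked on the deviations from the group means over the 32 arrays, with 3 pairs tested by permutation within groups (100000 resamples, two-sided). Pearson r was 0.676 for Id2 and Id3 (permutation p 0.0582, adjusted 0.115), 0.446 for Id1 and Id2 (permutation p 0.102, adjusted 0.115) and 0.398 for Id1 and Id3 (permutation p 0.115, adjusted 0.115). Spearman rho was 0.451 (permutation p 0.0562, adjusted 0.169), 0.225 (permutation p 0.325, adjusted 0.325) and 0.295 (permutation p 0.185, adjusted 0.278) for the same pairs, so no pair passed. Leaving out the 2 arrays farthest from the median of the gene named first gave r of 0.542, 0.0908 and 0.274. Within G1R females (11 arrays) r was 0.259, -0.029 and -0.16, within G1R males (12 arrays) 0.797, 0.625 and 0.705, and within G2R males (9 arrays) 0.625, 0.337 and 0.288. Of these, Id1 and Id3 within G1R males passed (permutation p 0.0126, adjusted 0.0378), while their rho of 0.65 did not (permutation p 0.0367, adjusted 0.0741). Without the 3 arrays with bright Leydig cell markers r was 0.232, 0.084 and 0.107 over 29 arrays. Within G1R males it was then 0.544, -0.0591 and 0.285 (9 arrays, the lone BPA array left out) and within G2R males 0.0369, 0.338 and 0.196 (8 arrays), and no pair passed. Over all 32 arrays, with the replicate number also removed, Id2 and Id3 passed, with r of 0.801 (permutation p 0.00317, adjusted 0.00951). This setting kept the 3 arrays with bright Leydig cell markers. Adjustment covered the 3 pairs within each setting and not the number of settings.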

How the data were processed

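RNA of sorted germ cells was hybridised to 32 Affymetrix Mouse Gene 1.0 ST arrays. The deposited values are log2 signals that the authors made by RMA in Partek, per the labels, with 35556 probes per array and array medians between 7.29 and 7.5, and versions are not given in the sources used here. Probes were named from the platform annotation, in which 21789 named 1 gene, 1621 several and 12146 none, and symbols were updated through RefSeq (GRCm38.p6). Here each group had its own mean in limma 3.58.1 (R 4.3.3), fitted over all arrays and probes with Benjamini-Hochberg adjustment at 0.05, and was tested on simulated data. The number of arrays limits the precision. A gene with several probes was read by the brightest. Named were the 10 members, up to 4 genes per pathway list with the smallest p between the sexes and up to 2 between generations, the member with the smallest p in each other contrast, and the 3 genes most like each of Id1, Id2 and Id3. Further pathway genes named in lists were chosen after their values were seen. The members, the pathway lists and the marker lists were chosen with earlier results of these data known. Pathway lists held 115 genes, 112 of them analysed here, and marker lists 66, 62 measured. Alternatives were unmoderated least squares, fewer arrays, 2 probe filters, cyclic loess, array weights, the replicate number as a block and leaving out each array. Leaving out 3 arrays with bright Leydig cell markers was chosen after seeing the data. For fits that left out arrays, the share of all probes that passed was not computed, so their calls have no such share beside them. Macrophage and blood markers, a list not described above, averaged 6.10 in G1R Oil F and 6.30 in G1R Oil M.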

Additional observations from a re-analysis of the deposited data

How the results depend on the processing

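The counts of called members stayed at 0 in every ED, generation and interaction contrast under unmoderated least squares, fits of the compared arrays alone, both probe filters, cyclic loess and array weights. Leaving out 1 array at a time gave 0 to 1 for G1R BPA M and for the interaction of sex and BPA, with 1 (Id2) without G1R BPA M replicate 3. Without the arrays with bright Leydig cell markers, Id2 in G1R BPA M was at -0.04 and the interaction of generation and DEHP had 1 call. Members without overlap between the sexes after oil numbered 8, 9 with cyclic loess and 8 to 10 without 1 array. Pathway calls of the sex contrast stayed between 27 and 29 higher and between 43 and 47 lower without 1 array. Cyclic loess turned Tcf4 to -0.18 and Tcf3 to -0.20. In G1R DEHP M the pathway calls were 2 (Bmp4 and Zeb1) with only bright probes, 2 with only single-gene probes, 1 with array weights, 1 without the bright Leydig arrays and 0 to 1 without 1 array, G1R DEHP M replicate 1 giving the 1. In G1R VZ M array weights gave 6 calls, and in G1R BPA M leaving out 1 array gave 0 to 9. Of 6 higher and 6 lower pathway calls between generations, 0 and 0 were left with only the arrays compared, 2 and 2 with cyclic loess and 3 lower with only bright probes. Leaving out 1 array left 1 to 5 higher and 1 to 3 lower, G1R Oil M replicate 1 leaving 2 and 1, replicate 2 leaving 3 lower, replicate 3 leaving 3 and 2, and G2R Oil M replicate 1 leaving 1 and 2, replicate 2 leaving 2 and 3 and replicate 3 leaving 1 lower. The correlation of Id1 with Id2 and with Id3 turned to -0.029 and -0.16 within G1R F. That of Id1 and Id3 passed within G1R M at 0.705. That of Id1 and Id2 turned to -0.0591 within G1R M without the bright Leydig arrays. That of Id2 and Id3 passed with the replicate block at 0.801, with the bright Leydig arrays kept. Deviations of same-numbered arrays correlated between -0.354 and 0.131, and in 0 of 13 contrasts was every pair over 0.1. With 2 or 3 arrays per group this cannot show whether same-numbered arrays shared a litter or a run. The replicate block changed no count of members or pathway genes by over 1.5 times. The cause of these changes was not tested. The values used here hold no background signal, so whether the dim Id signals in males lay above background is not known.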
